A study of Mus musculus with 4 samples.

Results

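Expression of 9 genes of the autonomic and peptidergic control of saliva secretion was examined in mouse salivary glands (SGs) with and without the adaptor protein MyD88. The genes were the neuropeptide precursors Vip, Tac1 and Npy, the peptide receptors Vipr1 and Tacr1, the muscarinic receptors Chrm1 and Chrm3, and the adrenergic receptors Adrb1 and Adra1a. They were chosen by name: each probe whose gene name in the scanner files equals one of these symbols was taken, which gave 12 of 55681 probes and 9 of 34844 genes on the array. No measured value enters that rule, although the 9 symbols themselves were picked with earlier results of these data known. Vip, Tac1 and Npy are also on the study's own list of salivary antimicrobial protein genes read by microarray. Its text names no change in them. The arrays were 1-colour Agilent whole mouse genome arrays hybridised with Cy3-labelled cRNA made from total RNA. Both groups were female C57/BL6 mice aged 10 weeks, kept without any treatment that the labels name. The Myd88-KO group was Myd88-null in the whole body, so its glands, its nerves and its immune cells all lacked the gene. The Wildtype group carried the intact gene, and per the study's methods both genotypes came from heterozygous parents. Each group had 2 arrays, labelled as submandibular and sublingual glands together. The study's text instead names submandibular glands alone and more animals per genotype than there are arrays. The gland and the number of animals behind each value are therefore uncertain. Per the study's methods, lymph nodes, connective tissue and fat were dissected away. Markers of fat, skeletal muscle, T cells and B cells were still read on the arrays, with median differences below 0 in Myd88-KO, as given below. The labels do not say whether the 2 arrays of a group came from separate mice, so the p-values below measure the spread between these arrays, which may be technical.

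Salivary secretion is driven by both branches of the autonomic nervous system. Parasympathetic terminals release acetylcholine together with peptides such as vasoactive intestinal peptide (VIP), and muscarinic receptors on acinar cells couple through Gq and phospholipase C to the calcium rise that drives fluid secretion. Sympathetic terminals release noradrenaline, often with neuropeptide Y, and act through beta receptors, Gs and cyclic AMP on protein secretion and through alpha-1 receptors on calcium. The peptide genes are transcribed mostly in nerve cell bodies, some of which lie in small ganglia within the glands, whereas the receptors are made by the gland cells themselves and by vessels, myoepithelium and immune cells.

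The probes are 60 bases long, and the first 30 bases of those on which the results turn are shown, because these are the stretches of transcript that were read. Positions are those of the file annotation on NCBI37/mm9. The Vip probe starts at base 1156 of its transcript and lies at chr10:4699238-4699297. The Tac1 probe starts at base 953 and lies at chr6:7512893-7512952. The Chrm3 probe starts at base 3087 and lies at chr13:9875880-9875939. Vipr1 has 2 probes, at bases 2459 (chr9:121579630-121579689) and 4793 (chr9:121581964-121582023), and they gave different answers.
Vip: ggataaaagagatatgtggcaaaaggattt
Tac1: gtttcaatgtaattctctggtcttcagtca
Chrm3: ggatttgactcttggttcttgcaaagtact
Vipr1 at base 2459: gggcaaggcatcttatgcctccctccatct
Vipr1 at base 4793: ccagttagcagtcctgattccgtcttgaca

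Of the peptide precursors among the 9 genes, Vip and Tac1 were detected on all 4 arrays. Both are classical targets of cyclic AMP signalling, and their 250 bases upstream of the transcript start are therefore shown from RefSeq on GRCm38.p6. The 5-letter core of the cyclic AMP response element, TGACG, and its reverse complement CGTCA are in capitals. Vip lies on the plus strand at chr10:5638968-5639217 of that build, with 1 match at bases -79 to -75. Tac1 lies on the plus strand at chr6:7554811-7555060, with 2 matches on the minus strand at bases -197 to -193 and -43 to -39.
Vip: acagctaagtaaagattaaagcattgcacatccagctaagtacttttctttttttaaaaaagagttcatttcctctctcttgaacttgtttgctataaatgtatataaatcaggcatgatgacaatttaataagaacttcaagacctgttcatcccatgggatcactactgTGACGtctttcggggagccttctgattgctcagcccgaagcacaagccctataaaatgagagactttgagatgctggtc
Tac1: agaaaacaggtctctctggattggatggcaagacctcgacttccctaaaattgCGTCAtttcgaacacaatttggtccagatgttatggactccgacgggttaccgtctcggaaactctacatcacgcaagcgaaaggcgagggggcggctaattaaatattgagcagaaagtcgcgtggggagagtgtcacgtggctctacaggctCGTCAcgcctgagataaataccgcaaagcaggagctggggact
An upstream sequence was at hand for 7 of the 9 genes, and 5 of the 7 held the motif on either strand: Vip, Tac1, Tacr1, Vipr1 and Adrb1. Those of Npy and Chrm3 held none. The motif occurs by its letters alone in 17.8% of 32851 promoters of that length, and a match is a description of the sequence, not of binding.

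Values below are log2 processed signals minus the 75th percentile of their own array, so that 0 is the 75th percentile and a difference of 1 is a doubling. The 75th percentile itself was an intensity of 237 to 321. A probe was taken as measured where the scanner software called it well above background, which held for 52.2% and 68.4% of probes on the Myd88-KO arrays and for 74.1% and 55.1% on the Wildtype arrays. The arrays therefore paired across genotype: Myd88-KO 1 and Wildtype 2 had the lower detection and correlated most closely with each other (r = 0.982 over all probes), and Myd88-KO 2 and Wildtype 1 likewise (r = 0.971), against 0.955 and 0.958 within the genotypes. All 4 lay on 1 slide. The Myd88 probe (chr9:119245322-119245381, mm9) read 1.51 and 1.41 on the Myd88-KO arrays and 1.15 and 1.07 on the Wildtype arrays, so it was not lower in the mice labelled null. Which exons the null allele lacks is not given in the sources used here and the probe is no check of the genotypes. With 2 arrays a group the number of arrays limits the precision, and an exact permutation test cannot give a two-sided p below 0.333.

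No difference between genotypes in these genes passed the test, and the peptide genes Vip and Tac1 showed the widest ones. Vip read 2.51-fold higher in Myd88-KO glands, Tac1 1.66-fold and Chrm3, the muscarinic receptor most tied to fluid secretion, 1.32-fold, each with no overlap between the groups. Vipr1, Adrb1 and Adra1a lay within 0.22 log2 units of equality on the probe that stands for each gene. Npy and Tacr1 were not well above background on any array. Of the 9 genes 7 were tested in limma among 22312 genes, and all 7 were well above background on all 4 arrays. After Benjamini-Hochberg adjustment 0 of the 7 were below 0.05 and 0 of all 22312 genes (0%), with a smallest adjusted p of 0.194. The methods' t-test, the unpaired test of the study, adjusted the same way, called 1 gene of all and 0 of the 7. At an unadjusted p under 0.05 stood 3 of the 7, all higher in Myd88-KO, against 16.7% of all genes tested in either direction and 9.82% higher. The same 3 did not overlap between groups, where 52.0% of all genes did not and 33.2% did not with the higher values in Myd88-KO. A difference over 1 log2 unit was seen in 1 of the 7 (Vip) and in 4.79% of all genes. Of the 7 differences 5 were above 0, against 59.6% of all genes, and their median was 0.40 beside 0.06. The 3 genes under that unadjusted threshold changed with the arrays used: none without Myd88-KO 1, Adra1a, Chrm3 and Tac1 without Myd88-KO 2, Vip alone without Wildtype 1, and Chrm1 and Vip without Wildtype 2.

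**Figure D1:**
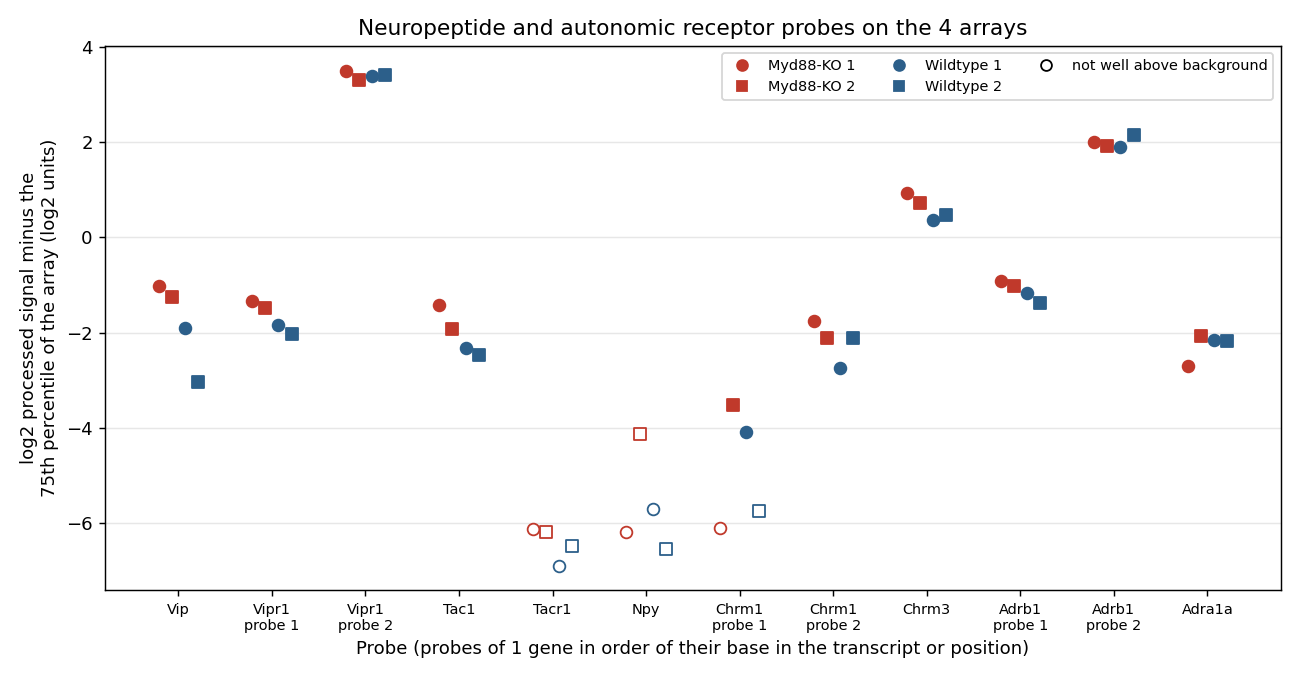
Each point is 1 probe on 1 array, plotted as its log2 processed signal minus the 75th percentile of the array, with open points where it was not well above background. Both Myd88-KO points lie above both Wildtype points for Vip, Tac1, Chrm3, Vipr1 probe 1 and Adrb1 probe 1. They do so for Tacr1 too, but Tacr1 and Npy have open points only. The heights of different probes are not comparable.

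Of the 3 peptide precursors, Vip had the largest difference. Vip encodes the precursor of VIP, a vasodilator and secretory co-transmitter of parasympathetic fibres. Its probe read -1.02 and -1.26 on the Myd88-KO arrays and -1.91 and -3.03 on the Wildtype arrays, from processed intensities of 126, 99.1, 85.6 and 33.0. Both Myd88-KO values were above both Wildtype values, and Wildtype 2 was far below the other 3. The difference was 1.33 log2 units (SE 0.43, 95% interval 0.10 to 2.55, n = 2 a group; limma adjusted p = 0.279), and the SD was 0.17 in Myd88-KO and 0.79 in Wildtype. Without Wildtype 2 the difference was 0.76. With normexp background correction, which compresses dim signals, it was 0.80. Between arrays of like detection it was 2.00 for Myd88-KO 1 against Wildtype 2 and 0.65 for Myd88-KO 2 against Wildtype 1. In whole glands, a change in the number of cells of a type and a change in RNA per cell cannot be told apart.

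Tac1 encodes the precursor of substance P and neurokinin A, which sensory and some parasympathetic fibres release and which can themselves evoke salivation. It read -1.42 and -1.92 in Myd88-KO and -2.33 and -2.47 in Wildtype. The groups did not overlap, although Myd88-KO 2 lay closer to Wildtype 1 than to its own replicate. The difference was 0.73 (SE 0.21, 95% interval 0.12 to 1.34; limma adjusted p = 0.259). It was 0.48 without Myd88-KO 1 and 0.46 with normexp background correction. Within the pairs of like detection it was 1.05 and 0.41.

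Npy encodes neuropeptide Y, the co-transmitter of vasoconstrictor sympathetic fibres. Its probe (chr6:49773743-49777505, a span that crosses a splice junction) read -6.19 and -4.13 in Myd88-KO and -5.70 and -6.54 in Wildtype. None of the 4 was well above background, with processed intensities from 2.89 to 13.6, so no difference is given.

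Of the peptide receptors, Vipr1 encodes VPAC1, a Gs-coupled receptor for VIP found on epithelium, vessels and lymphocytes. The probe that stands for it, at base 4793, read 3.49 and 3.30 in Myd88-KO and 3.38 and 3.41 in Wildtype. The 2 Wildtype values lay between the 2 Myd88-KO values. The difference was 0.00 (SE 0.12, 95% interval -0.34 to 0.34; limma adjusted p = 0.993), so a change past 0.34 log2 units in either direction lies outside the interval of this probe. The probe at base 2459 read -1.33 and -1.48 in Myd88-KO and -1.84 and -2.04 in Wildtype. Those groups did not overlap, and the difference was 0.53. The 2 probes of this transcript thus disagreed on the size of the difference, and with their mean the gene read 0.27 higher in Myd88-KO. Vipr1 (chr9:121581964-121582023 for the probe at base 4793) lies on the same chromosome as Myd88 (chr9:119245322-119245381, mm9). Per the study's methods the null line was a backcrossed one. Sequence variants linked to the null allele and the loss of MyD88 therefore cannot be told apart for Vipr1. Tacr1, which encodes the substance P receptor NK1, had 1 probe (chr6:82509613-82509672), which read -6.12 and -6.18 in Myd88-KO and -6.89 and -6.49 in Wildtype. It was not well above background on any array, with intensities of 2.70 to 3.68.

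Chrm3 encodes the M3 receptor, the principal muscarinic receptor of salivary acini. It read 0.93 and 0.71 in Myd88-KO and 0.37 and 0.47 in Wildtype. The groups did not overlap, and both Myd88-KO arrays stood above both others. The difference was 0.40 (SE 0.13, 95% interval 0.03 to 0.78; limma adjusted p = 0.283), and it was 0.46 and 0.34 within the pairs of like detection. It stayed between 0.29 and 0.51 when any 1 array was left out. Per the study's text, saliva secretion after pilocarpine was nearly the same in both genotypes, with the data not shown. How the Chrm3 RNA value relates to secretion was not tested.

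Chrm1 encodes the M1 receptor, which contributes to muscarinic secretion beside M3. The probe at base 6204 (chr19:8758011-8758070) read -1.76 and -2.11 in Myd88-KO and -2.74 and -2.11 in Wildtype. Myd88-KO 2 and Wildtype 2 were level, so the groups overlapped, and Wildtype 1 alone was lower. The difference was 0.49 (SE 0.28, 95% interval -0.31 to 1.28; limma adjusted p = 0.458). It was 0.17 without Wildtype 1, 0.80 without Wildtype 2 and 0.31 without Myd88-KO 1. The probe at base 3443 (chr19:8755342-8755401) was well above background on Myd88-KO 2 and Wildtype 1 only, the arrays of higher detection, and read -6.10 and -3.51 against -4.08 and -5.74.

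Of the adrenergic receptors, Adrb1 encodes the beta-1 receptor, which drives exocytosis of saliva proteins through cyclic AMP. The probe at base 2353 (chr19:56799215-56799274) read 2.01 and 1.91 in Myd88-KO and 1.89 and 2.15 in Wildtype. The Myd88-KO values fell between the Wildtype values, and the difference was -0.07 (SE 0.14, 95% interval -0.46 to 0.33; limma adjusted p = 0.847). The probe at base 380 (chr19:56797242-56797301) read -0.91 and -1.03 against -1.18 and -1.39, without overlap and 0.31 higher in Myd88-KO. The sign of the gene's difference thus depended on the probe, and it was 0.12 with the mean of both and 0.06 without Wildtype 2.

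Adra1a encodes the alpha-1A receptor, which couples noradrenaline to Gq. Its probe (chr14:67352013-67352072) read -2.70 and -2.07 in Myd88-KO and -2.15 and -2.18 in Wildtype. Both Wildtype values lay between the Myd88-KO values, and Myd88-KO 1 was the lowest of the 4. The difference was -0.22 (SE 0.25, 95% interval -0.94 to 0.49; limma adjusted p = 0.696). It was 0.09 without Myd88-KO 1 and -0.54 without Myd88-KO 2.

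**Figure D2:**
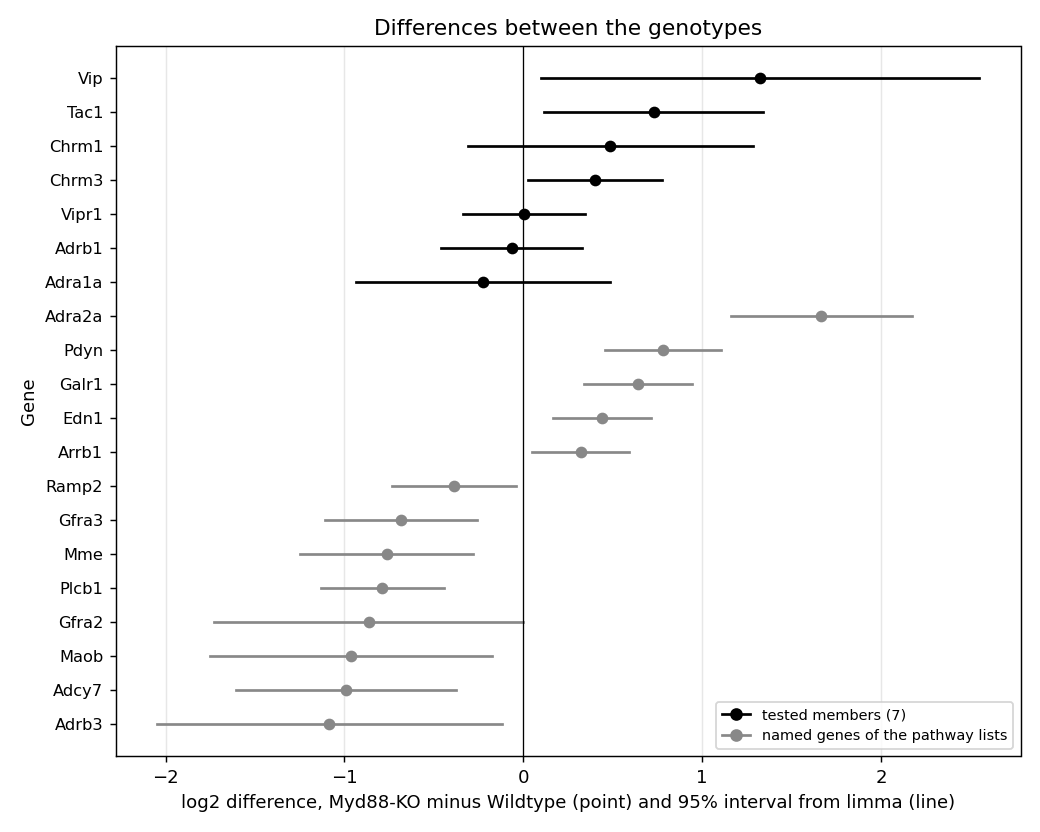
Points are log2 differences of Myd88-KO minus Wildtype and lines their 95% intervals from limma, in black for the 7 tested genes of the report and in grey for genes named from the pathway lists. The intervals of Vip, Tac1 and Chrm3 lie above 0 and those of Chrm1, Vipr1, Adrb1 and Adra1a span it, and no gene passed the adjusted threshold.

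The profile over the 4 arrays was set against 177 genes of the pathway and marker lists that were also well above background on every array. Each profile was centred on its own mean, and likeness was the root mean square difference in log2 units. Nearest to Vip, whose own spread by that measure was 0.78, was Adra2a at 0.45, followed by Pdyn at 0.47. Nearest to Tac1, with a spread of 0.41, were Pdyn at 0.13 and Scg5, a chaperone of prohormone processing, at 0.16. Chrm3 (spread 0.22) lay nearest to Krt7 at 0.06 and Scnn1a at 0.07. Chrm1 (spread 0.35) lay nearest to Ascl3 at 0.13 and Scnn1a at 0.16. Krt7, Scnn1a and Ascl3 are the 3 of 8 tested duct markers that were higher in Myd88-KO. The other 5 were lower, and the median of the duct list was -0.10. For Vipr1 (spread 0.07) the nearest genes were Gnaq and Pcsk2, and for Adrb1 (spread 0.10) Adcy9 and Krt14. For Adra1a (spread 0.25) they were Pyy and Adra2c. These distances were 0.02 to 0.11, beside spreads that were themselves small. These are descriptions over 4 arrays, with no test.

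Among the other genes of autonomic and peptidergic signalling, 7 lists held 129 genes, of which 98 were tested and 18 were well above background on no array. In limma 0 of the 98 passed the adjusted threshold, and 0 did in the methods' t-test. At an unadjusted p under 0.05 stood 17 of them (17.3%, beside 16.7% of all genes), 5 higher and 12 lower in Myd88-KO, against 9.82% and 6.83% of all genes. The median difference was -0.02. Without Wildtype 2 the count of 17 was 9.

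The largest difference of the 98 was in Adra2a, the alpha-2A receptor that restrains transmitter release and lowers cyclic AMP through Gi. It read 2.39 and 1.98 in Myd88-KO and 0.50 and 0.53 in Wildtype. The groups stood well apart, with a difference of 1.67 (SE 0.18; limma adjusted p = 0.194), and it was 1.86 and 1.48 within the pairs of like detection. It passed the adjusted threshold with normexp background correction and with trended and robust moderation. The other receptor with a low unadjusted p in its list of 13 tested cholinergic and adrenergic receptors, whose median was -0.04, was Adrb3, the beta-3 receptor known from fat cells. Adrb3 read 0.52 and 0.64 in Myd88-KO and 1.23 and 2.11 in Wildtype, a difference of -1.08 (SE 0.34; limma adjusted p = 0.269), while its second probe gave -0.29. All 6 tested adipocyte markers were lower in Myd88-KO, with a median difference of -0.80 and a summed linear level of 129 and 210 against 285 and 293. Their part in the Adrb3 value was not tested.

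Other peptide ligands had 10 tested genes, 2 of them higher at an unadjusted p under 0.05 and 0 lower, with a median of 0.19. Cartpt, the CART precursor, read -3.85 and -3.10 in Myd88-KO and -3.40 and -6.19 in Wildtype, a difference of 1.33 like that of Vip, but its groups overlapped and it was well above background on 3 arrays only. Pdyn, the dynorphin precursor, differed by 0.78 (SE 0.11; limma adjusted p = 0.194), but its second probe, well above background on 1 array, gave 0.24. Edn1, the endothelin 1 precursor, differed by 0.44 (SE 0.10; limma adjusted p = 0.211). Other peptide receptors had 10 tested genes and a median of 0.12. The galanin receptor Galr1, well above background on 3 arrays, differed by 0.64, and Ramp2, the partner of adrenomedullin receptors, by -0.39.

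Transmitter synthesis and clearance had 12 tested genes and a median of 0.03, with Maob, which breaks down monoamines, at -0.97. Peptide processing and breakdown had 14 and a median of 0.06, with Mme, the neprilysin gene whose product degrades substance P and VIP, at -0.76 and at -0.63 on its second probe. Receptor coupling, the G proteins and enzymes below these receptors, had 31 tested genes and a median of -0.14. Of these 31 genes 58.1% did not overlap between groups, beside 52.0% of all genes. They were 13 of 31 with lower values in Myd88-KO and 5 of 31 with higher values, where all genes gave 18.7% and 33.2%. Its genes at an unadjusted p under 0.05 were 6 lower (19.4%, beside 6.83% of all genes) and 1 higher (3.23%, beside 9.82%). Of these Adcy7, an adenylyl cyclase abundant in blood cells, was at -0.99, Plcb1, a phospholipase C driven by Gq, at -0.79, and Arrb1, a beta-arrestin, at 0.32. The other 2 probes of Plcb1 gave -0.11 and 0.24. The part of lymphocytes and fat cells in the values of this list was not tested. Of 8 tested trophic genes of ganglia and nerves, with a median of -0.29, Gfra2, the neurturin receptor of parasympathetic neurons, was at -0.87 and Gfra3, the artemin receptor, at -0.68. The 95% interval of Gfra2 was -1.73 to -0.002, and its difference was -0.36 and -1.37 within the pairs of like detection. For Gfra3 those pairs gave -0.85 and -0.51.

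**Figure D3:**
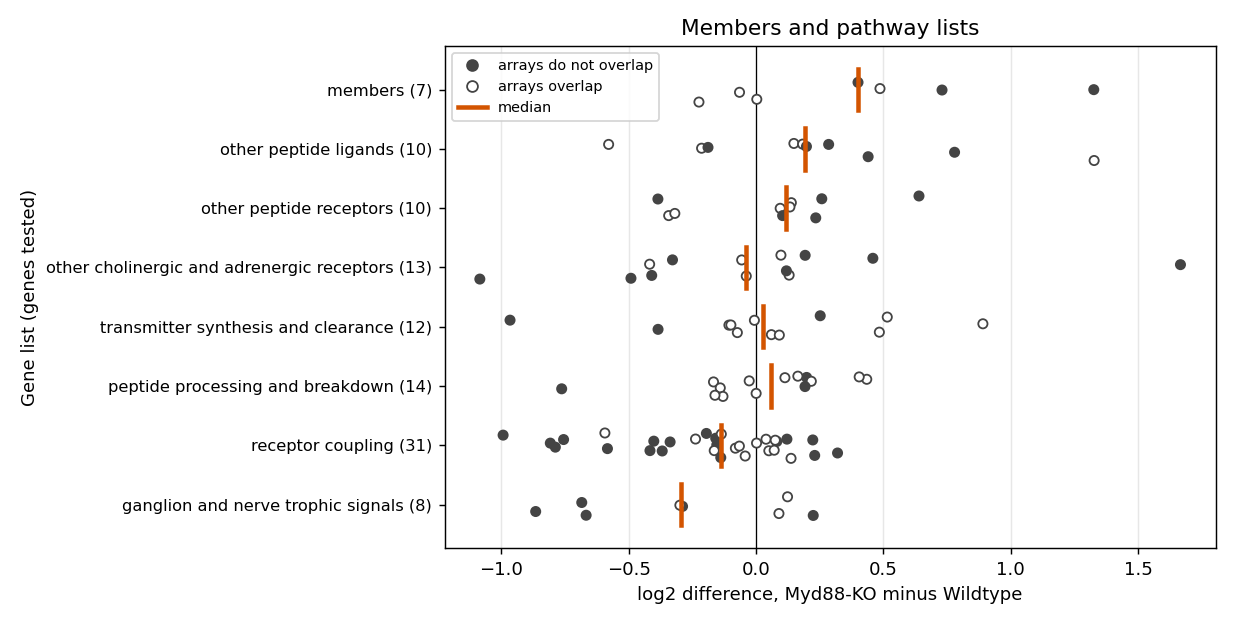
Each point is the log2 difference of Myd88-KO minus Wildtype of 1 tested gene, filled where the arrays of the 2 groups did not overlap, and the bar is the median of the list. The 7 genes of the report have the highest median, 0.40, and the lists of other cholinergic and adrenergic receptors (-0.04), receptor coupling (-0.14) and trophic signals (-0.29) have medians below 0.

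Markers of the cells that could hold these transcripts were read on the same arrays. The tissue carried its acinar and tubule markers on every array: all 8 acinar and all 8 granular tubule genes tested were well above background on all 4. Of 18 neuron markers 12 were tested, with a median difference of 0.18, a range of -0.21 to 0.40 and 0 at an unadjusted p under 0.05, and their mean log2 level was -0.29 and -1.07 in Myd88-KO and -0.63 and -0.98 in Wildtype. Their summed linear level was 49.1 and 48.2 in Myd88-KO and 39.6 and 46.0 in Wildtype, most of it from Snap25, and the other 11 summed to 13.5 and 9.96 against 12.8 and 11.7. Myd88-KO 2 was the lowest array for 7 of the 12, Wildtype 2 for 4 and Wildtype 1 for 1. Isl1 was the neuron marker not well above background on any array. Syt1, the neuron marker with the widest difference, read -2.52 and -2.79 in Myd88-KO and -2.33 and -3.78 in Wildtype. Of 11 Schwann cell markers, with a median of -0.03, S100b differed by -1.47. Beside Vip and Tac1 these are measured values, and their part in those differences was not tested.

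Acinar markers had a median of 0.23 and a summed level of 5044 and 4989 in Myd88-KO against 3538 and 3796 in Wildtype, with Dcpp1 (0.30), Dcpp2 (0.34) and Smgc (1.57) higher at an unadjusted p under 0.05. These 3 made up most of that sum on every array. The other 5 differed by 0.44 (Lpo), 0.17 (Aqp5), 0.03 (Bhlha15), -0.01 (Ano1) and -0.13 (Muc19). Of 8 duct markers 5 were lower in Myd88-KO, with a median of -0.10 and Slc4a4 at -0.91. Krt7, Scnn1a and Ascl3 were higher at an unadjusted p under 0.05. The part of acinar and duct cells in the Chrm3 and Chrm1 values was not tested. All 8 tested T cell markers were lower in Myd88-KO, with a median of -2.95 and a summed level of 4.47 and 5.45 against 17.0 and 10.5. Cd3e, the brightest of them, differed by only -0.06 and overlapped between groups. The other 7 summed to 1.16 and 1.45 against 13.4 and 6.62. Cd3d differed by -4.45, with 1 of its 2 Myd88-KO values not well above background. All 6 tested B cell markers were lower too, with a median of -4.82, a summed level of 2.15 and 1.84 against 15.3 and 8.29, and Ms4a1 at least 28.5-fold lower. By contrast, the study's flow cytometry of submandibular glands from male mice found B cells and IgA+ plasma cells increased without MyD88. Why the RNA values and the cell counts differ was not tested. The difference of Vipr1, which lymphocytes also express, was 0.00 beside the T and B cell markers, and the part of lymphocytes in it was not tested. Among stromal lists the median difference was -0.03 for smooth muscle and myoepithelium (Des -1.38), 0.16 for endothelium (Tek 1.14) and -0.09 for macrophages (Cd163 2.76, with 1 of its 2 Wildtype values not well above background), and it was -0.09 for the granular tubule (Klk1b9 -0.60). Skeletal muscle markers had a median of -5.07, with Myh4 at least 218-fold lower in Myd88-KO, and parotid markers a median of -1.43, with Prh1 at -2.41. The part of muscle and parotid tissue in the values of the 9 genes was not tested.

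**Figure D4:**
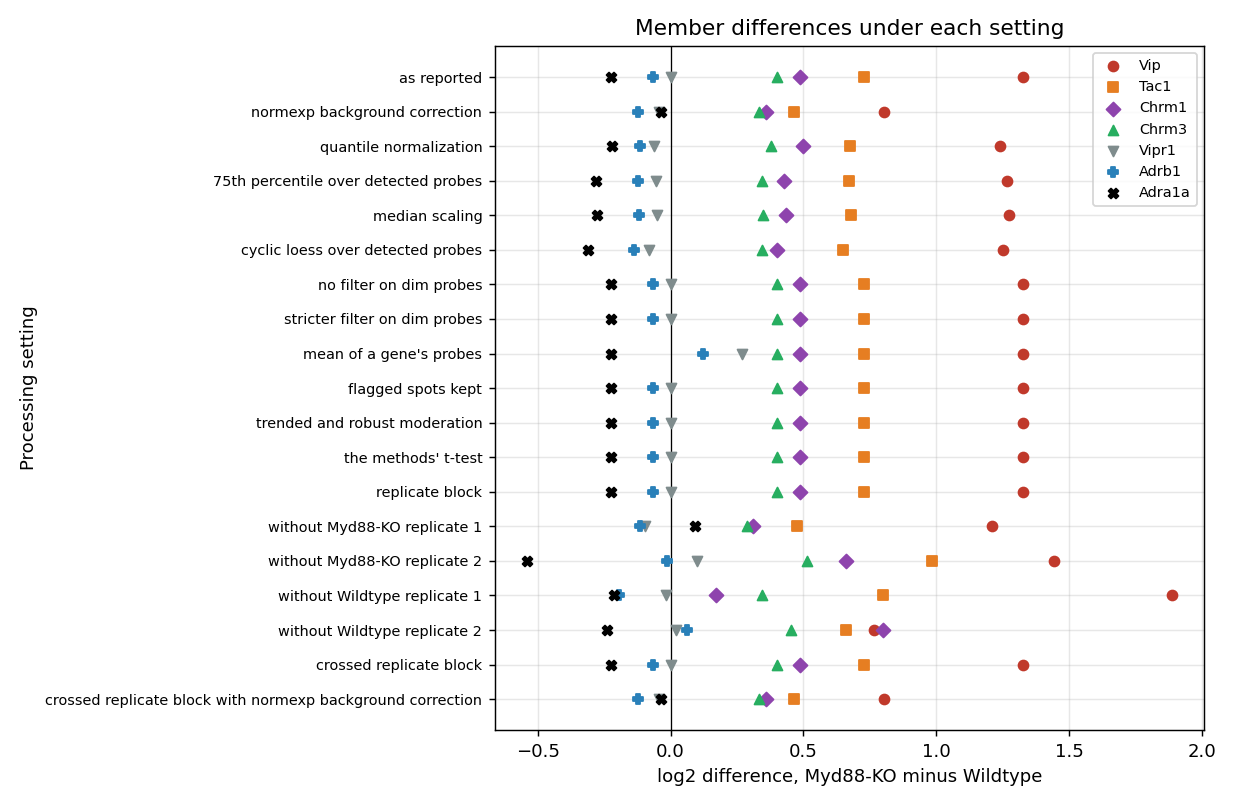
Points are the log2 differences of Myd88-KO minus Wildtype of the 7 tested genes, as reported in the top line and under each of 18 other settings below it. Vip, Tac1, Chrm1 and Chrm3 stay above 0 in every line, while Vipr1, Adrb1 and Adra1a cross 0 in some.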

How the data were processed

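Total RNA of 4 samples was hybridised to 1-colour arrays, which the authors read with Agilent Feature Extraction 10.7.3.1. The deposited intensities are processed signals, background-subtracted by that software. From them, log2 of the deposited intensity minus the 75th percentile of each array over non-control spots was computed, leaving out outlier spots. A probe was well above background if over 0.5 of its spots were, and a gene was tested if a probe was so on both arrays of a group. Where a gene had several tested probes, its brightest was used. The genotypes were compared with limma 3.58.1 (lmFit, eBayes) in R 4.3.3 over 22312 genes, and p-values were adjusted by Benjamini-Hochberg with a 0.05 threshold, and the script was tested on simulated data. Summed levels are sums of linear values, with 1 the 75th percentile of the array. An "at least" fold sets the mean of the bright group against the lowest signal well above background.

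The genes and lists were chosen with earlier results of these data known. Besides every probe of the 9 genes and Myd88, the genes named were, per pathway list, up to 2 per direction with the largest differences among those with an unadjusted p under 0.05 and no overlap, and per marker list the gene with the widest difference. The nearest 2 genes in profile were named for each gene measured on all arrays. Cartpt, Snap25, Isl1, Rgs2, Cd3e, Krt7, Scnn1a, Ascl3 and the acinar genes other than Smgc were named after their values were seen. The 16 other settings tried covered background correction, scaling, filters, probe choice, moderation, the methods' t-test, the replicate block and each array left out. A processed table of 4 columns, whose names match no sample label, was not used. Upstream sequences are from RefSeq GRCm38.p6.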

Additional observations from a re-analysis of the deposited data

How the results depend on the processing

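The differences of Vip, Tac1, Chrm1 and Chrm3 kept their sign under all 16 settings chosen at the start and the 2 added after seeing the data. Leaving out 1 array gave 0.76 to 1.89 for Vip, 0.48 to 0.98 for Tac1, 0.29 to 0.51 for Chrm3, 0.17 to 0.80 for Chrm1, -0.54 to 0.091 (without Myd88-KO 1) for Adra1a, -0.19 to 0.063 (without Wildtype 2) for Adrb1 and -0.094 (without Myd88-KO 1) to 0.10 for Vipr1. Vipr1 was -0.016 without Wildtype 1, -0.044 with normexp background correction with or without crossing, -0.063 with quantile normalization, -0.055 with the percentile over detected probes, -0.049 with median scaling, and -0.081 with cyclic loess. Adrb1 was 0.12 with the mean of its probes. The precision is limited by 2 arrays a group and, for dim probes, by the signal over background.

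Genes passing the adjusted threshold numbered 0 as reported, 79 with normexp, 402 with median scaling, 482 with trended and robust moderation and 1 with the methods' t-test, and the cause was not tested. With median scaling limma gave each of the 7 tested genes the same SE, 0.54, so its counts there follow the size of the difference alone. Pathway list genes passing the adjusted threshold were 1 with normexp (Adra2a) and 2 with trended and robust moderation (Adra2a and Rgs2). Of the 7 tested genes, 3 had an unadjusted p under 0.05 as reported, 1 (Vip) with median scaling, 0 without the filter on dim probes and 0 with the methods' t-test, and 0 to 3 when 1 array was left out. Of the pathway list genes this held for 17 as reported, 3 with median scaling, 10 without the filter, 10 with the methods' t-test and 9 without Wildtype 2. Over all genes 2190 were higher and 1525 lower at that p, but 1700 and 1660 with quantile normalization, 1654 and 1888 with the percentile over detected probes, 240 and 755 with median scaling and 1572 and 2213 with cyclic loess. It was 1414 and 1138 without the filter, 2009 and 926 with the methods' t-test, and 1238 and 1172 with the replicate block.

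Same-numbered arrays deviated in opposite directions (r = -0.373 over 22312 genes), so the numbers do not pair the samples. With the replicate block 0 genes passed the adjusted threshold, and Vip (adjusted p = 0.440 in limma) and Tac1 had an unadjusted p under 0.05. With the numbers crossed 0 genes passed, and with crossing and normexp together 1133 genes passed, among them 1 of the 7 (Vip) and 8 pathway list genes, with 26 at an unadjusted p under 0.05.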
